A study of Mus musculus with 6 samples.

Results

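The interferon receptor and Jak-Stat genes described here are 9 of the 20059 genes measured in KLS cells, the Kit-positive, Sca-1-positive bone marrow fraction without mature lineage markers that contains blood stem cells and multipotent progenitors. They were taken by name, through probe sets annotated with exactly 1 gene symbol: the receptor chains Ifnar1, Ifnar2, Ifngr1 and Ifngr2, the kinases Jak1 and Tyk2, the factors Stat2 and Irf9, and the inhibitor Socs1. All 9 were found under their current symbols, with 181 probe sets in all, of which 171 lay above the level filter, and every gene kept at least 6. The series compared 3 arrays of wild-type mice with 3 of Dnmt3a+/- mice, heterozygous for Dnmt3a, which encodes an enzyme that sets new DNA methylation. Each array read total RNA of KLS cells, amplified from 20 ng. The strain, age, sex and treatment of the mice, the kind of Dnmt3a allele and whether each array stands for 1 animal are not stated in the sources at hand. A p-value here is set only by how far these arrays differ, and some of that spread may be technical.

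Type I interferons bind a receptor made of Ifnar1 and Ifnar2, and interferon gamma binds one made of Ifngr1 and Ifngr2. Jak1 serves both receptors, with Tyk2 as its partner on the type I receptor and Jak2 on the gamma receptor. The kinases phosphorylate Stat proteins, among them Stat2, which joins Irf9 in the factor ISGF3. ISGF3 binds the interferon-stimulated response element (ISRE), and a further element of the pathway is the gamma-activated site (GAS). Socs1 is induced by the pathway and blocks its kinases. In blood stem cells, interferons are known to drive resting cells into division and, when they persist, to exhaust them.

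Values are log2 normalised intensities, averaged per gene over its probe sets above the filter. Differences are Dnmt3a+/- minus wild-type from a limma fit over all genes, with the standard error (SE) of that fit. No gene in the series passed an adjusted p of 0.05 (0% of 20059 genes, smallest adjusted p = 0.535, limma), and 1502 genes had an unadjusted p under 0.05 (7.49%). Differences below are therefore given as values. Dnmt3a itself read 8.51, 8.70 and 8.50 on the wild-type arrays and 8.38, 8.20 and 8.20 on the Dnmt3a+/- arrays, in the order of replicates 1 to 3, which holds for all triplets here. Its difference of -0.31 (SE 0.12) was -0.17 after cyclic loess, a normalisation that removes trends of the difference with signal level. Array medians were 59.8 to 61.6 in linear intensity. Dnmt3a+/- replicate 2 differed from the others: it correlated with them at 0.904 on average, the rest at 0.938 to 0.949, and its brightest 10% of genes lay at -0.27 relative to wild-type. Over all genes the difference between genotypes went down as the level went up (Spearman -0.369 across genes, which are not independent replicates). The brightest 10% lay at -0.071 and -0.027 on Dnmt3a+/- replicates 1 and 3, against -0.053 to 0.034 on the wild-type arrays. The dimmest 10% lay at 0.073, 0.15 and -0.0012 on the Dnmt3a+/- arrays. The trend with level was thus largest on Dnmt3a+/- replicate 2.

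The 9 genes were all bright, with levels between percentiles 73.4 and 97.8 of all genes. The 4899 genes within this range had a median difference of -0.13, with quartiles at -0.24 and -0.019, and 78.2% of them had a lower mean in Dnmt3a+/- cells. Over all genes that share was 54.3%, with a median difference of -0.023. After cyclic loess the same 4899 genes had a median of -0.0031. Each gene is given below under both scalings.

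As a group, 8 of the 9 genes had a lower mean in Dnmt3a+/- than in wild-type cells, with Socs1 as the exception. With the median of probe sets in place of the mean all 9 were lower. Their median difference was -0.19 and their range -0.47 to 0.076. In Ifnar1, Ifnar2, Tyk2 and Irf9 every Dnmt3a+/- array was below every wild-type array. This applied to 9.05% of all genes and to 18.1% of the genes in the same level range. After cyclic loess 6 of the 9 had a lower mean (49.2% of all genes), the median was -0.078, and Irf9 alone of the 9 did not overlap between genotypes (6.46% of all genes). None of the 9 passed over all genes under either scaling (limma, adjusted p from 0.631 to 0.881 as deposited), while 1, Irf9, had an unadjusted p below 0.05 under both (7.49% of all genes as deposited, 4.57% with a lower and 2.92% with a higher mean, and 6.59% after cyclic loess, 3.33% with a lower mean).

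**Figure D1:**
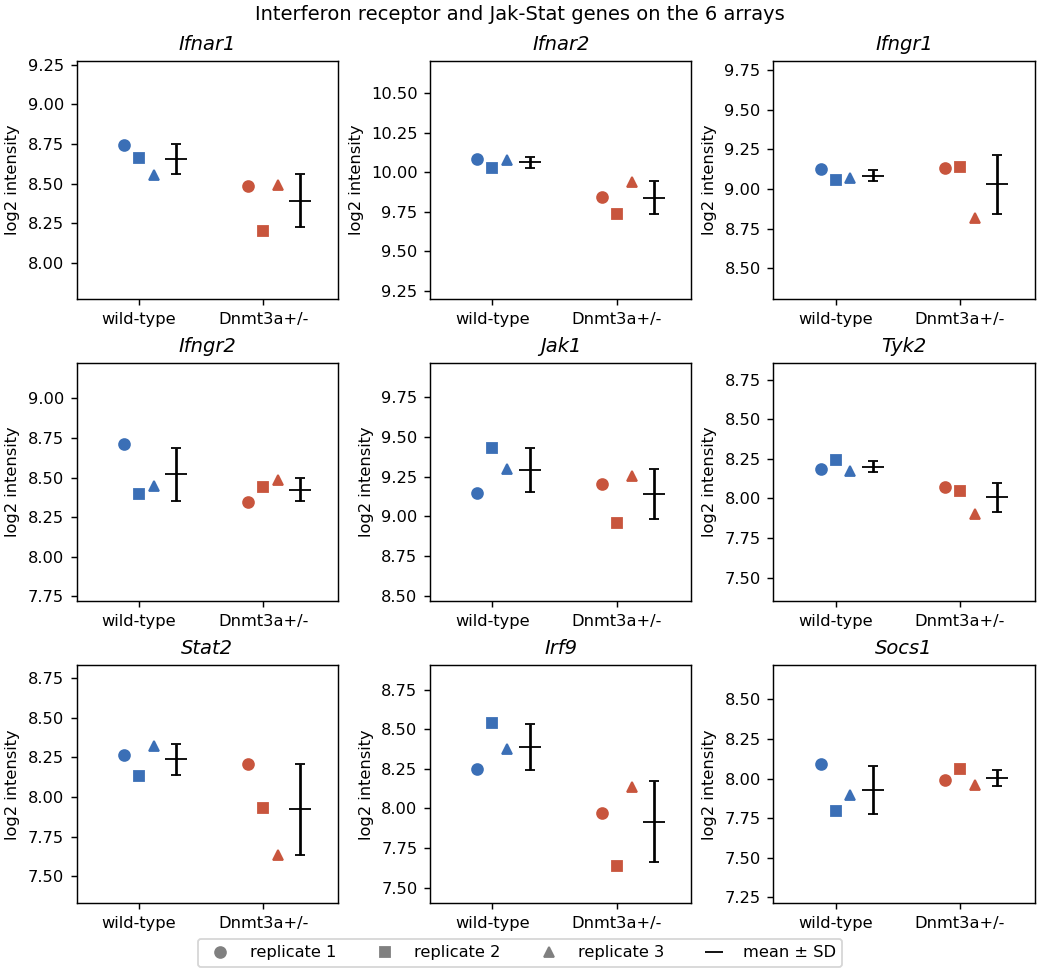
Log2 intensity of each of the 9 genes on the 3 wild-type (blue) and 3 Dnmt3a+/- (red) arrays, with symbols for the replicate number and the mean ± SD of each genotype beside the points; every panel spans the same log2 width around its own centre. The red points lie wholly below the blue ones in Ifnar1, Ifnar2, Tyk2 and Irf9, and the genotypes overlap in the other 5 genes.

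Both chains of the type I receptor read lower in Dnmt3a+/- cells. Ifnar1, the chain that holds Tyk2, read 8.74, 8.66 and 8.56 on the wild-type arrays and 8.49, 8.20 and 8.49 on the Dnmt3a+/- arrays. The groups did not overlap, and the lowest array was Dnmt3a+/- replicate 2. The means were 8.65 ± 0.09 and 8.39 ± 0.17 (SD, n = 3), a difference of -0.26 (SE 0.13, 95% confidence interval -0.55 to 0.03, fold 0.833). The exact two-sided permutation test gave p = 0.1, and no lower value is possible with 3 arrays a genotype. Without Dnmt3a+/- replicate 2 the difference was -0.17, and after cyclic loess it was -0.13 with overlapping groups.

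Ifnar2, the high-affinity chain that holds Jak1, read 10.08, 10.02 and 10.08 in wild-type cells, a spread of 0.03 (SD, n = 3). In Dnmt3a+/- cells it read 9.84, 9.73 and 9.94, so the groups again stood apart. The difference was -0.22 (SE 0.11, 95% confidence interval -0.47 to 0.03, fold 0.858), with an exact permutation p of 0.1. After cyclic loess it was -0.11 and the groups overlapped. The log2 intensity of Ifnar2 minus that of Ifnar1 averaged 1.41 ± 0.10 on the wild-type and 1.45 ± 0.089 on the Dnmt3a+/- arrays (SD, n = 3). These means differed by less than the spread between replicates (exact permutation p = 0.6, 1 of 4 such pairs compared). The genes are read by different probe sets, so only the change between genotypes can be read, not a ratio of transcripts.

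The chains of the interferon gamma receptor overlapped between genotypes. Ifngr1, which binds the ligand, read 9.13, 9.06 and 9.07 on the wild-type arrays and 9.13, 9.14 and 8.82 on the Dnmt3a+/- arrays. Only Dnmt3a+/- replicate 3 was lower than the others. The difference was -0.056 (SE 0.12, 95% confidence interval -0.34 to 0.23), and it turned to 0.051 without that array and to 0.080 after cyclic loess, but was -0.28 with the median of its probe sets. Ifngr2, the chain that brings in Jak2, read 8.71, 8.40 and 8.45 on the wild-type arrays and 8.34, 8.44 and 8.48 on the Dnmt3a+/- arrays. The high value was wild-type replicate 1, and the other arrays were mixed. Its difference of -0.097 (SE 0.12, 95% confidence interval -0.38 to 0.19) was -0.0012 without that array, -0.16 without wild-type replicate 2 and 0.037 after cyclic loess. The intervals of both chains still allow a difference as large as that of either type I chain, and a difference between the receptors was not tested.

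Jak1, the kinase shared by both receptors, read 9.15, 9.43 and 9.30 on the wild-type arrays and 9.21, 8.96 and 9.26 on the Dnmt3a+/- arrays. The groups overlapped, and Dnmt3a+/- replicate 2 was the lowest array. The difference of -0.15 (SE 0.13, 95% confidence interval -0.45 to 0.15) was -0.060 without Dnmt3a+/- replicate 2, -0.082 without wild-type replicate 2 and -0.018 after cyclic loess.

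Tyk2, the kinase of the Ifnar1 chain, read 8.19, 8.24 and 8.17 on the wild-type arrays and 8.07, 8.05 and 7.90 on the Dnmt3a+/- arrays. All wild-type arrays lay within a narrow band above all Dnmt3a+/- arrays, with Dnmt3a+/- replicate 3 the lowest. The means were 8.20 ± 0.04 and 8.01 ± 0.09 (SD, n = 3), and the difference was -0.19 (SE 0.11, 95% confidence interval -0.44 to 0.05, fold 0.874, exact permutation p = 0.1). After cyclic loess it was -0.078 and the groups overlapped.

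Irf9, the DNA-binding subunit of ISGF3, had the largest difference of the 9 genes, as deposited and after cyclic loess. It read 8.25, 8.54 and 8.38 on the wild-type arrays and 7.97, 7.64 and 8.14 on the Dnmt3a+/- arrays, and the highest Dnmt3a+/- array was below the lowest wild-type array. The means were 8.39 ± 0.15 and 7.92 ± 0.25 (SD, n = 3). The difference was -0.47 (SE 0.16, 95% confidence interval -0.83 to -0.11, fold 0.721), with an exact permutation p of 0.1, an unadjusted limma p of 0.0162 and an adjusted p of 0.631 (limma). A lower mean with an unadjusted p below 0.05 was found in 4.57% of all genes and in 7.84% of those in the same level range. After cyclic loess Irf9 read 8.22, 8.45 and 8.31 against 7.98, 7.81 and 8.13, a difference of -0.35 (SE 0.12, unadjusted p = 0.0213, adjusted p = 0.732, limma), and the groups still did not overlap. Without Dnmt3a+/- replicate 2, its lowest array, the difference was -0.33. With the median of its probe sets it was -0.37 (unadjusted p = 0.146, limma).

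Stat2, the partner that gives ISGF3 its activating domain, read 8.26, 8.13 and 8.32 on the wild-type arrays and 8.21, 7.93 and 7.63 on the Dnmt3a+/- arrays. The groups overlapped because Dnmt3a+/- replicate 1 lay within the wild-type range, while Dnmt3a+/- replicate 3 was the lowest. The difference was -0.32 (SE 0.16, 95% confidence interval -0.68 to 0.05, fold 0.804, exact permutation p = 0.2). It was -0.17 without Dnmt3a+/- replicate 3, -0.46 without Dnmt3a+/- replicate 1 and -0.20 after cyclic loess. The Dnmt3a+/- arrays thus ranked differently for both ISGF3 subunits, since Irf9 was lowest on replicate 2 and Stat2 on replicate 3.

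Socs1, the feedback inhibitor, had a higher mean in Dnmt3a+/- cells, except when the median of its probe sets was used. It read 8.09, 7.79 and 7.89 on the wild-type arrays and 7.99, 8.06 and 7.96 on the Dnmt3a+/- arrays, with wild-type replicate 1 above all other arrays. The difference of 0.076 (SE 0.12, 95% confidence interval -0.20 to 0.35) was within the spread between replicates. It was 0.18 after cyclic loess, 0.16 without wild-type replicate 1, 0.0096 without wild-type replicate 2 and -0.068 with the median of its probe sets in place of the mean.

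**Figure D2:**
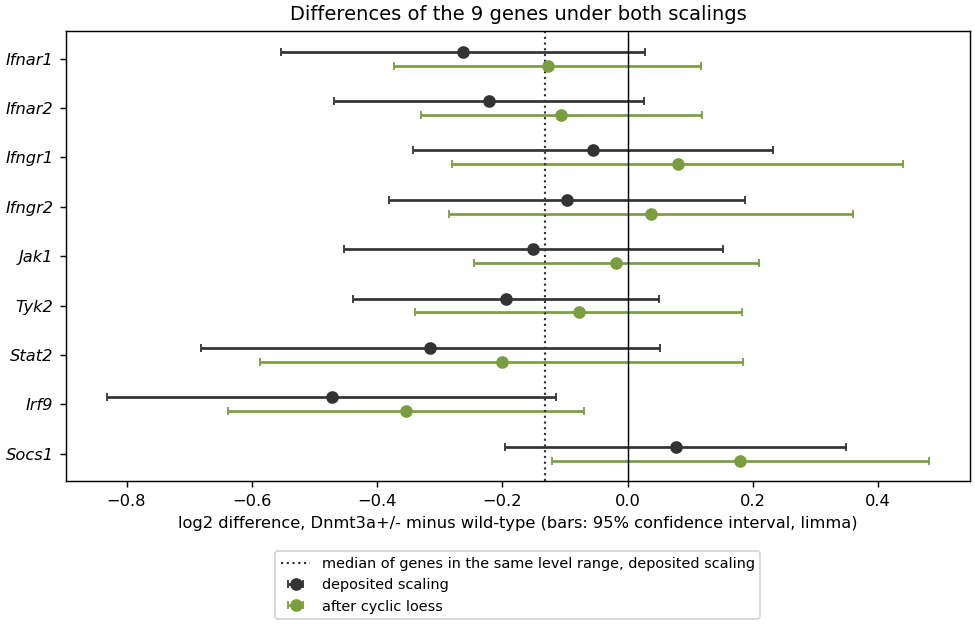
Log2 difference (Dnmt3a+/- minus wild-type) of each gene with its 95% confidence interval from limma, in the deposited scaling (black) and after cyclic loess (green); the dotted line marks -0.13, the median of the 4899 genes of the same level range in the deposited scaling. Irf9 is the gene whose interval lies below 0 under both scalings, and Ifngr1 and Ifngr2 change sign.

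The promoters of the pathway's own targets carry its response elements, so the 250 bases before the RefSeq start (build GRCm38.p6) were searched for an ISRE core, GAAA and GAAA with 2 bases of any kind between (TTTC and TTTC on the other strand), and a GAS core, TTC and GAA with 3 bases of any kind between, which reads alike on both strands. The 9 genes have 10 such windows, with Irf9 listed at 2 starts. An ISRE core was present in the windows of Stat2 and Socs1, and in 2.98% of the 32851 windows of all genes. Among 24 windows of genes known as ISGF3 targets, 7 held one (29.2%). A GAS core was present in the Ifnar2 window, from 214 bases before the start (7.02% of all windows). The windows of Irf9, the gene with the largest difference, held neither core. The windows had a median of 13.5 CpG dinucleotides, the sites that Dnmt3a methylates, against 6 over all windows, which were not matched for expression level. The 2 Irf9 windows held 7 and 1, and those of the other genes 11 to 25. DNA methylation was not measured here. The windows below are shown to compare both ISGF3 subunits and the inhibitor, 5′ to 3′ along the gene's strand and ending at the base before the start, with ISRE cores in capitals: Stat2 at chr10:128270248-128270497 (plus strand), the first Irf9 start at chr14:55603735-55603984 (plus strand) and Socs1 at chr16:10785537-10785786 (minus strand).
Stat2: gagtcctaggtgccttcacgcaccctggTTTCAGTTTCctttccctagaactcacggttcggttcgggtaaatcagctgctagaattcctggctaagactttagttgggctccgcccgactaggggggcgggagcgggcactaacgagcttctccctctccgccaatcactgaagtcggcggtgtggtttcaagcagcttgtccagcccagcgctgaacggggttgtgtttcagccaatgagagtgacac
Irf9: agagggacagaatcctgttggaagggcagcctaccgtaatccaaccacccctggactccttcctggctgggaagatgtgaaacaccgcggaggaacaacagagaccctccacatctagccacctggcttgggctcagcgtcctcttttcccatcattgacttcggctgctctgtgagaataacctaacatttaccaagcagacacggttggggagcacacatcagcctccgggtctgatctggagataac
Socs1: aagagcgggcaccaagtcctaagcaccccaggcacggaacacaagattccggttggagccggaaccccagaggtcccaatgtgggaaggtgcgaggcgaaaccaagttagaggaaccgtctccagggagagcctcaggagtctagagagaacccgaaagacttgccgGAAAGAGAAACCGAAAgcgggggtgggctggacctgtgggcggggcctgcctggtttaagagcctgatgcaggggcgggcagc
In Stat2 the core lies 222 bases before the start. In Socs1 a pair of overlapping cores begins 83 and 77 bases before it, and they share their middle GAAA. Stat2 and Socs1, with such a core, had differences of -0.32 and 0.076 in the fit. Their confidence intervals, -0.68 to 0.05 and -0.20 to 0.35, both include 0, so neither direction is established. With the median of probe sets the differences were -0.34 and -0.068. A link between the cores and the differences was not tested.

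The single probe sets show how far each gene's value is shared along the gene. Of the 171 probe sets above the filter, 129 had a lower mean in Dnmt3a+/- cells, where 50.3% of all 628415 probe sets did. The shares of all probe sets given here were not matched for level, and 221209 of the 628415 had a name. Among genes in the level range of the pathway genes, 78.2% had a lower mean. The part of signal level in the contrast with 50.3% was not tested. In 18 of the 171 probe sets every Dnmt3a+/- array was below every wild-type array (6.1% of all probe sets), and in 3 it was above (6.31%). The count of 18 was 12 after a second quantile normalisation and 29 to 48 with 1 array left out, highest without Dnmt3a+/- replicate 1, where fewer arrays have to be separated. None passed over all probe sets (0%, limma, smallest adjusted p = 0.799), while 6 reached an unadjusted p below 0.05 with a lower mean (3.41% of all) and 1 with a higher mean (2.8%). Probe sets of 1 gene share their RNA and are not independent.

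In every receptor chain more probe sets had a lower than a higher mean, and the share in Ifngr2 was close to that in Ifnar1. Of all probe sets 50.3% had a lower mean, and of genes in this level range 78.2% did. In Ifnar2, 12 of 13 probe sets had a lower mean, with differences from -0.42 to 0.062, and in Ifnar1 17 of 21, from -0.73 to 0.16. Probe set 5187910 of Ifnar1 had the lowest difference, reading 7.49, 7.43 and 7.55 on the wild-type arrays and 6.83, 6.89 and 6.56 on the Dnmt3a+/- arrays (difference -0.73, SE 0.18). In Ifnar2 the lowest and highest were 4814493 (-0.42, SE 0.21) and 5532960 (0.062, SE 0.20). In Ifngr1 7 of 12 were lower (-0.45 to 0.28), and in Ifngr2 8 of 10 (-0.52 to 0.11).

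In Irf9, 12 of 13 probe sets had a lower mean, but the sizes were uneven, with a median of -0.38. In 4 of them the genotypes stood apart with Dnmt3a+/- lower. The largest difference was in probe set 4561861, which read 7.82, 7.17 and 7.19 on the wild-type arrays and 6.22, 5.73 and 6.36 on the Dnmt3a+/- arrays (difference -1.29, SE 0.27, unadjusted p = 0.00188, adjusted p = 0.799, limma). At the other end, 5600446 lay at -0.0052 (SE 0.18) and the dimmer 5233261 at 0.29 (SE 0.56). Which exon each probe set reads was not used here.

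Stat2 had 21 of 26 probe sets with a lower mean (median -0.36, range -1.19 to 0.39). The lowest, 5276832, read 8.92, 8.21 and 8.58 on the wild-type arrays and 8.60, 6.25 and 7.29 on the Dnmt3a+/- arrays, so its difference came from replicates 2 and 3 while replicate 1 read like wild-type. Tyk2 had 20 of 27 on that side (-1.23 to 0.69) and Jak1 30 of 43 (-0.93 to 0.64), with 3 and 5 probe sets standing apart and lower. Of the 6 probe sets of Socs1, 2 were lower and 4 higher. The outermost, 4922200 at -0.27 (SE 0.18) and 5246831 at 0.45 (SE 0.18), stood apart between genotypes in opposite directions, and neither passed (limma, adjusted p = 0.814 and 0.799).

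**Figure D3:**
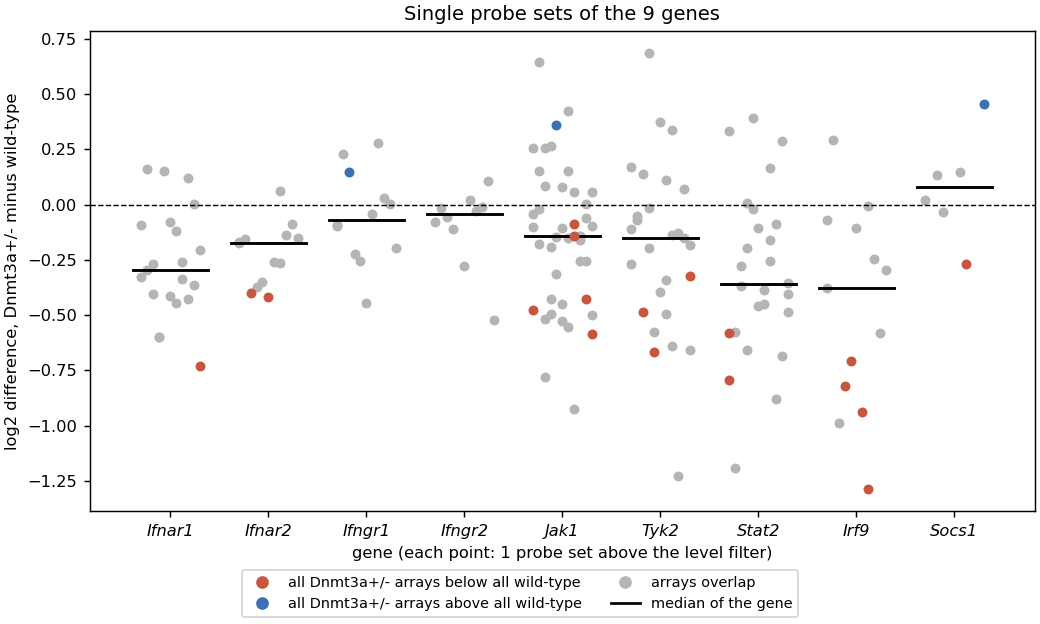
Log2 difference of every probe set above the filter, by gene, with a bar at the gene's median; red points have all Dnmt3a+/- arrays below all wild-type arrays, blue points all above, and grey points overlap. Irf9 and Stat2 have the lowest medians, at -0.38 and -0.36, and Socs1 holds 1 red and 1 blue point.

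The remaining pathway genes were taken from lists of their known roles, and none of their members passed over all genes (limma, smallest adjusted p = 0.631). Of 11 measured genes for other kinases, Stats, coactivators and receptor chains, 10 had a lower mean (54.3% of all genes), with a median of -0.18, and 4 did not overlap and were lower (9.05% of all genes). These shares were not matched for level: in the level range of the 9 genes they were 78.2% and 18.1%. Jak2, the kinase of the Ifngr2 chain, read 8.16, 8.13 and 8.08 on the wild-type arrays and 7.86, 7.61 and 7.70 on the Dnmt3a+/- arrays. The groups were well apart, with a difference of -0.40 (SE 0.11) and of -0.30 after cyclic loess. The acetyltransferase gene Ep300 stood at -0.32 (SE 0.12) and Stat5b, which acts below many cytokine receptors, at -0.22 (SE 0.10). After cyclic loess they were -0.19 and -0.089, and Stat5b was -0.090 with the median of its probe sets. After cyclic loess the list's median was -0.039, 7 of 11 were lower (49.2% of all genes) and 2 stood apart and lower (6.46%).

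Among 17 other inhibitors of Jak-Stat signalling, 11 had a lower mean (54.3% of all genes), with a median of -0.13. After cyclic loess 8 of the 17 had a lower mean (49.2% of all genes). The median was 0.0077 after cyclic loess, -0.063 without Dnmt3a+/- replicate 1 and -0.077 without Dnmt3a+/- replicate 2. Socs2, which dampens growth hormone and other cytokine signals, was higher on every Dnmt3a+/- array: it read 6.84, 7.07 and 7.01 on the wild-type arrays and 7.27, 7.51 and 7.35 on the Dnmt3a+/- arrays. Its difference was 0.40 (SE 0.12, unadjusted p = 0.0102, adjusted p = 0.631, limma), and 6.74% of all genes stood apart in this direction. It was 0.20 when its dim probe sets were included. Usp18, which blocks the Ifnar2 chain and is itself induced by interferon, stood at -0.26 (SE 0.13), and Socs6 at -0.35 (SE 0.17). Without Dnmt3a+/- replicate 2 they were -0.15 and -0.17, and Usp18 was -0.53 with the median of its probe sets.

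The target genes of the pathway also read lower. Of 27 measured genes that ISGF3 switches on, 26 had a lower mean (54.3% of all genes), 13 did not overlap and were lower (9.05%), and 10 had a lower mean and an unadjusted p below 0.05 (4.57%). The median difference was -0.28, and after cyclic loess it was -0.23, with 24 lower (49.2% of all genes) and 11 standing apart and lower (6.46%). Oas2, an activator of RNA decay in virus-infected cells, stood at -0.55 (SE 0.12), the RNA-sensing kinase gene Eif2ak2 at -0.44 (SE 0.12) and Cmpk2, a mitochondrial nucleotide kinase gene, at -0.42 (SE 0.11). Cmpk2 turned to 0.087 when only probe sets above the 75th percentile were used. That these target genes read lower in Dnmt3a+/- cells was known when the 9 genes were chosen, so it is no independent support for them.

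Of 19 measured genes that interferon gamma switches on, 16 had a lower mean (54.3% of all genes) and 8 did not overlap and were lower (9.05%), with a median of -0.22. After cyclic loess 15 were lower (49.2%) and 5 stood apart and lower (6.46%), with a median of -0.19. The GTPase gene Igtp stood at -0.49 (SE 0.14), the immunoproteasome subunit gene Psmb9 at -0.54 (SE 0.18) and the transcription factor gene Irf1 at -0.37 (SE 0.13). Psmb9 was -0.37 without Dnmt3a+/- replicate 2 and -0.30 with probe sets above the 75th percentile.

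Of 21 listed interferon genes, 10 had a probe set above the filter, and 7 of these had a higher mean. Over all genes 54.3% had a lower mean. The median difference of the 10 was 0.11, and it was 0.019 without the filter. Their mean level was low, at 6.82 to 6.91 on the wild-type arrays against 7.54 to 7.55 for all genes. Many of these genes are near-identical copies, so their probe sets may read several of them. The closest to a difference were Ifna11 at -0.31 (SE 0.14), Ifnl3 at 0.39 (SE 0.20) and Ifnk at 0.43 (SE 0.22). Ifna11 turned to 0.056 without the filter and was -0.17 without Dnmt3a+/- replicate 2. Ifnl3 was 0.23 without that array, and Ifnk 0.17 without Dnmt3a+/- replicate 3.

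**Figure D4:**
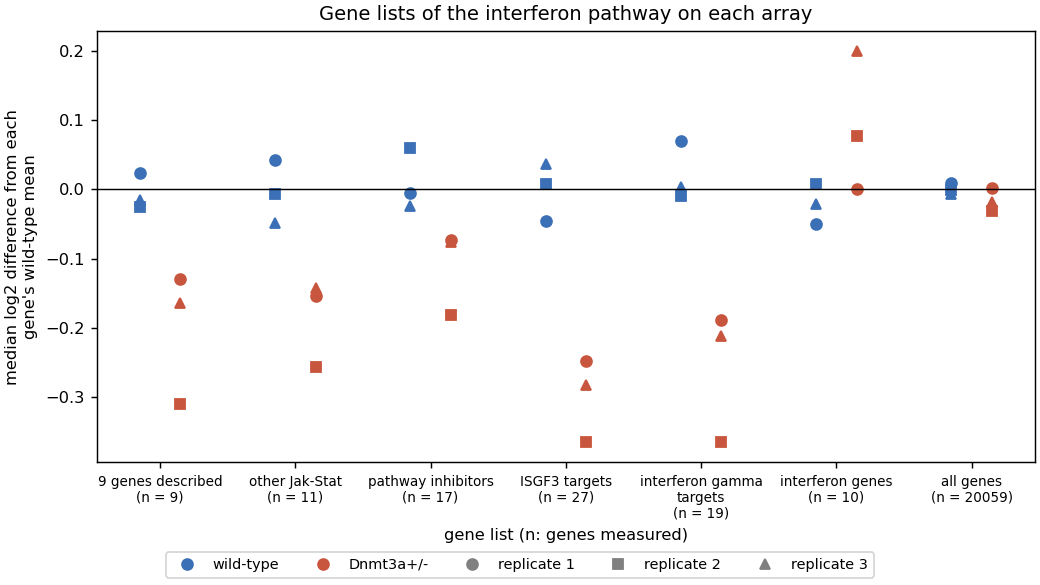
Median over the genes of each list of the log2 difference from the gene's own wild-type mean, for each wild-type (blue) and Dnmt3a+/- (red) array; wild-type points lie near 0 by construction. The Dnmt3a+/- arrays of the 9 genes lie at -0.13, -0.31 and -0.16, those of the ISGF3 targets at -0.25, -0.37 and -0.28, and those of all genes at 0.0014, -0.032 and -0.018.

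The mean profile of the 9 genes over the 6 arrays, each gene centred on its own mean, was 0.12, 0.084 and 0.078 on the wild-type arrays and -0.029, -0.15 and -0.10 on the Dnmt3a+/- arrays. Over these 6 arrays the other genes with the closest profiles were Rap2b (Pearson 0.997, difference -0.43), Jak2 (0.997), Mprip (0.996, difference -0.17), Smcr8 (0.993, difference -0.64) and Psap (0.989, difference -0.32). Rap2b encodes a small GTPase, Mprip a partner of myosin phosphatase and Psap a precursor of lysosomal activator proteins. With 6 arrays and 20059 genes, coefficients this high are a ranking and nothing more.

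The sorted population was checked against its defining genes. The difference of Kit was -0.11 (SE 0.10), with every Dnmt3a+/- array below every wild-type array, and -0.019 after cyclic loess. The Sca-1 gene, Ly6a, differed by -0.015 (SE 0.13), which turned to 0.12 after cyclic loess. Of 11 measured stem and progenitor markers 8 had a lower mean (54.3% of all genes), with a median of -0.11. In the level range of the 9 pathway genes, 78.2% of genes had a lower mean and the median was -0.13. The mean level of the markers was 9.03 to 9.12 on wild-type and 8.95 to 9.01 on Dnmt3a+/- arrays. In bulk RNA, fewer cells of a type and less RNA per cell cannot be told apart.

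Markers of mature neutrophils had the opposite sign. All 9 measured of 10 had a higher mean in Dnmt3a+/- cells, where 54.3% of all genes had a lower one. Ly6g lay below the filter. The mean level of the 9 markers ran from 8.04 to 8.66 on wild-type and from 8.50 to 9.22 on Dnmt3a+/- arrays. Relative to the wild-type means their median was 0.36, -0.57 and 0.20 on the wild-type arrays. On the Dnmt3a+/- arrays it was 0.75, 0.30 and 0.19. In 2 of the 9 markers every Dnmt3a+/- array was above every wild-type array (6.74% of all genes). Monocyte and macrophage markers had mean levels of 7.31 to 7.41 against 7.29 to 7.51 (8 of 10 higher, single differences from -0.73 to 0.42). Plasmacytoid dendritic cell markers, from the main producers of type I interferon, had mean levels of 7.69 to 7.86 against 7.65 to 7.94 (6 of 8 lower). Markers of the B lineage (7 of 8 measured) ran from 6.90 to 7.23 against 7.04 to 7.39, those of T and NK cells (8 of 8) from 6.98 to 7.14 against 7.04 to 7.21, and those of erythroid cells (6 of 8) from 7.34 to 7.72 against 7.47 to 7.63. The part of these other cells in the interferon pathway differences was not tested.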

How the data were processed

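The authors deposited 1 table of normalised intensity values for 1256831 probe sets on 6 one-colour arrays. Per the submitters' processing notes they were made with RMA in Partek, and the versions, settings and build are not stated in the sources at hand. The deposited intensities ran from 1.84 to 22239, a linear scale, so log2 was taken with no pseudocount. RMA equalises the distributions, which hides any shift common to most of the transcriptome. Precision is limited by having 6 arrays.

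Gene names came from the platform annotation, which can be old: 318760 probe sets had 1 symbol and 6684 several, which were not used. Of 22296 symbols, 18006 were current in RefSeq (GRCm38.p6) and 4227 were updated. A gene's value is the mean of its probe sets above the median level of the table (log2 5.89). Above it lay 628415 probe sets, of which 221209 had a name. The nearest probe sets of the 9 genes on either side of this level, both of Tyk2, lay at 5.95 and 5.81.

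The comparison of genotypes used lmFit and eBayes of limma 3.58.1 (R 4.3.3), with no covariate, over all genes and over all probe sets, with Benjamini-Hochberg adjustment. Single genes were also compared with exact permutation tests. The fit was tested on simulated data. The 9 genes and all lists were chosen with earlier results of these data known. Beside the 9 genes, the text names Dnmt3a, Kit, Ly6a, the 3 genes of each pathway list with the smallest p, the 5 genes closest to the mean profile, and outermost probe sets. Irf9 probe set 5600446 was picked after their values were seen. Alternatives were the filter, the median of probe sets, 3 normalisations, the variance model, array weights, the replicate number as a block, and leaving out each array. Same-numbered arrays did not deviate together (correlations of deviations -0.05, -0.09 and 0.11).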

Additional observations from a re-analysis of the deposited data

How the results depend on the processing

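All 15 alternatives left 0 of the 9 genes and 0 of all genes past adjusted p 0.05 (limma). At an unadjusted p under 0.05 the count of all genes was 1502, rose to 2593 with array weights and was 925 to 1928 with 1 array left out, lowest without wild-type replicate 2 and next without wild-type replicate 3 (989). Ifnar1, Ifnar2, Jak1, Tyk2, Stat2 and Irf9 had a lower mean under every one of the 15. The cause of the following shifts was not tested. The count of the 9 genes standing apart and lower, 4, was 2 with the median of probe sets and 1 after cyclic loess, and 4 to 5 with 1 array left out. The count at the smallest exact permutation p, also 4, was 2 with the median of probe sets, 1 after cyclic loess and 2 to 5 with 1 array left out. The count with an unadjusted limma p below 0.05, 1, ran from 0 to 2. It was 0 with the median of probe sets and 2 without the filter, where Tyk2 joined Irf9 (unadjusted p = 0.0371, limma). Cyclic loess moved the median of the 9 genes to -0.078, that of other Jak-Stat genes to -0.039 and that of the inhibitors to 0.0077, and it turned Ifngr1 (0.080), Ifngr2 (0.037) and Ly6a (0.12). No filter moved the median of the interferon genes to 0.019 and turned Ifna11 (0.056). The 75th percentile filter, which left no value for Ifna11, Ifnl3 and Ifnk, turned Cmpk2 (0.087). The median of probe sets turned Socs1 (-0.068) and Ly6a (0.053). Ly6a also turned after a second quantile normalisation (0.0038) and with array weights (0.049), and ran from -0.10 to 0.077 with 1 array left out. Ifngr1 ran from -0.11 to 0.051, the ISGF3 target median from -0.34 to -0.25 and the inhibitor median from -0.15 to -0.063 in the same way. Cyclic loess, the median of probe sets and the 75th percentile filter were not applied to single probe sets. The share of all genes with a lower mean, 54.3%, was 49.2% after cyclic loess. With the replicate number as a block the same-numbered arrays were treated as pairs, which the deviations do not bear out: Irf9 kept -0.47 (SE 0.17, adjusted p = 0.714, limma), Dnmt3a -0.31 (SE 0.14), and the count of genes at an unadjusted p under 0.05 was 1274. With 3 arrays a genotype, the 95% confidence intervals of all of the 9 genes except Irf9 include 0.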
